A study of Mus musculus with 12 samples.

Results

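The loss of caspase-9 was examined in bone marrow stem and progenitor cells by setting 3 Casp9 KO arrays against 3 wild-type arrays of the same experiment, across every detected gene. A gene counted as detected where the detection score of a probe was above 0.95 on at least 3 of these 6 arrays, and each gene symbol was represented by its detected probe with the highest mean. This left 10724 genes of the 24505 gene symbols on the array, and 16851 of its 45281 probes. Casp9 KO cells carried a caspase-9 knockout and WT experiment 1 cells were wild type, and the labels give strain C57BL/6 for both. All samples were Lineage-negative, Kit-positive, CD45.2-positive cells, a fraction enriched for haematopoietic stem and progenitor cells, sorted from femur and tibia of chimeric mice. The mice had been reconstituted with fetal liver cells of embryonic day 13.5, and marrow was taken 12 to 16 weeks later. The knockout allele and the genotype of the host are not described in the labels. The same series holds 3 arrays of a Bak/Bax DKO (double knockout of Bak and Bax) and 3 of a second wild type, WT experiment 2, on another beadchip, and these were used here to test where the Casp9 effect differed and in alternative fits. The series text calls the 3 samples of a population independent, but no label ties them to separate animals, and the spread behind each p-value is that among these samples. Casp9 KO and WT experiment 1 were hybridised on the same beadchip. All values are the deposited normalized log2 bead intensities.

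Caspase-9 is the initiator caspase of the mitochondrial pathway of apoptosis. Bak and Bax open the outer mitochondrial membrane, cytochrome c then assembles Apaf1 into the apoptosome, and the apoptosome activates caspase-9, which in turn cleaves the executioner caspases. Type I interferons bind a receptor that signals through the kinases Jak1 and Tyk2 to a complex that includes Stat2 and Irf9. That complex binds a promoter element, the interferon-stimulated response element (ISRE), and raises a large set of antiviral genes. Blood stem cells are known to respond to interferon, and Ly6a, which encodes the stem cell surface protein Sca-1, is itself interferon-induced in the mouse.

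Mean bead intensity was 396.3 to 522.0 on the Casp9 KO arrays and 414.9 to 426.4 on the WT arrays, and 36.3% to 37.4% of probes were detected on each of the 6. Correlations over the genes tested were 0.987 to 0.991 within Casp9 KO, 0.992 to 0.993 within WT and 0.973 to 0.984 between them. Xist, the RNA of the inactive X chromosome, was at 10.55, 4.43 and 4.62 on the Casp9 KO arrays and at 10.99, 10.17 and 4.30 on the WT arrays, so both groups held arrays with and without it. The number of arrays limits the precision.

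The Casp9 probe that was detected lies at chr4:141371743-141371792 in the files, which name no genome build. It read 5.37, 5.24 and 5.48 on the Casp9 KO arrays and 8.02, 8.99 and 8.83 on the WT arrays. The probe was still detected on all 3 Casp9 KO arrays. The groups stood far apart, and the level fell by 3.25 on the log2 scale (SE 0.23, limma adjusted p = 0.00017). The other 3 Casp9 probes were below detection on all 6 arrays. The deleted part of the gene is not given, so whether this probe lies inside it is unknown. Within 2 megabases on either side of the probe 21 genes were tested, of which 2 rose and 1, Necap2, fell by 0.83 (SE 0.13), a call lost without WT replicate 2.

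Of the 10724 genes, 593 (5.53%) were called at a limma adjusted p under 0.05. They split into 325 rises (3.03%) and 268 falls (2.5%), so that rises made up 54.8% of calls, and 67.4% with each array centred on its median. The rises reached further. Where a gene was below detection on every array of a group, only a lower bound of its fold is known, set against the lowest detected level. With such genes at their bound, 122 rises were at least 2-fold, 30 at least 4-fold, 12 at least 8-fold and 4 at least 16-fold, against 52, 3, 1 and 0 falls. By the measured values the counts were 125, 34, 13 and 5 rises against 54, 4, 1 and 0 falls. Over all genes the median change was -0.03, and 44.8% of genes were higher in Casp9 KO. The Casp9 KO and WT arrays did not overlap for 2794 genes (26.1%), among them all 593 called ones. The count of calls rested on single arrays. It was 225 without Casp9 KO replicate 3 and 200, 177 and 260 without WT replicates 1, 2 and 3, while it was 833 without Casp9 KO replicate 1.

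**Figure D1:**
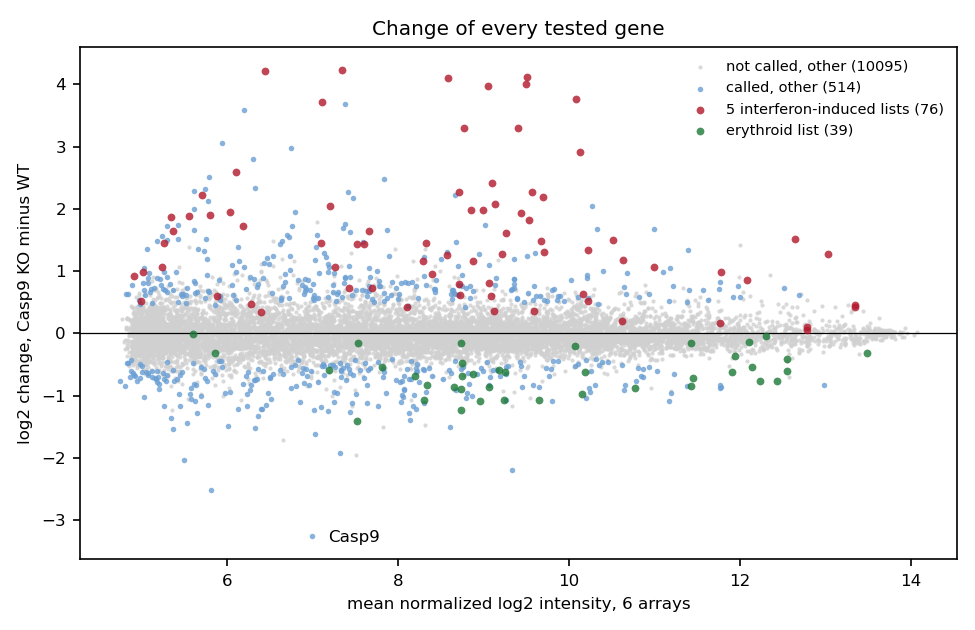
Log2 change (Casp9 KO minus WT, vertical axis) of each of the 10724 genes tested against its mean normalized log2 intensity on the 6 arrays (horizontal axis). Red points are the 76 measured members of the 5 interferon-induced lists, all above 0. Of these, 10 passed the detection filter only through the Casp9 KO arrays. Green points are the 39 measured erythroid genes, all below 0, and blue points other called genes.

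Interferon-induced genes led the rises. Of the 15 largest rises among called genes by measured value, 11 belonged to 5 lists of interferon-induced genes, which hold 60 of all 325 rises. Those lists had 76 measured members, of which 60 rose, 16 were not called and none fell, at a median change of 1.44, or 1.30 with the 10 members below detection on all WT arrays at their bound. This stands beside 3.03% of rises over all genes, as do the counts of rises in the lists below. All 76 were higher in Casp9 KO. The 10 below detection on all WT arrays passed the detection filter only through the Casp9 KO arrays, so their direction was favoured in advance. Averaged over the 76, the level was 9.32, 9.55 and 9.50 on the Casp9 KO arrays and 7.75, 7.94 and 7.91 on the WT arrays. Leaving out any 1 of the 6 arrays kept between 52 and 61 rises in these lists.

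The promoters of 5 of the 15 largest rises are shown because they are the sequences in which the ISRE can be looked for. The windows run from 250 bases before to 50 after the start site and come from RefSeq (GRCm38.p6). Capitals mark each match to the ISRE core, which is GAAA, any 2 bases and GAAA again, or on the other strand TTTC, any 2 bases and TTTC. Matches may overlap.
Isg15, chr4:156200769-156201068, minus strand: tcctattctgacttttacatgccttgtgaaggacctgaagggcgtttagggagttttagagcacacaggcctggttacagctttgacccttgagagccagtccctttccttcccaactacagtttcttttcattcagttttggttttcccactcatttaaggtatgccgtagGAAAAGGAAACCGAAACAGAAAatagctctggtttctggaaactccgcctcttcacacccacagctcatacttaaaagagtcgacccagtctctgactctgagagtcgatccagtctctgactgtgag
Ifit3, chr19:34583279-34583578, plus strand: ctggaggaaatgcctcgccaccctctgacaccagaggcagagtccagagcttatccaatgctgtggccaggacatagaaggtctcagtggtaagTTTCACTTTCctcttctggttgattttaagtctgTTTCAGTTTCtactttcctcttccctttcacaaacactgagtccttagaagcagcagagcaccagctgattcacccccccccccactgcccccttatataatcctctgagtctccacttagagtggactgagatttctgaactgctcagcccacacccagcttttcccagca
Rsad2, chr12:26456403-26456702, minus strand: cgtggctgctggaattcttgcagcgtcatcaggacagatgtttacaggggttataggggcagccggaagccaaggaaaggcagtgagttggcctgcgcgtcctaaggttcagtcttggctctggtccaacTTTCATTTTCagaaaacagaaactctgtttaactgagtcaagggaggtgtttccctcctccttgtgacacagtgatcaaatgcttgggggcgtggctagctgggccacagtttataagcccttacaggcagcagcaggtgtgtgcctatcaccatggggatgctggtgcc
Cxcl10, chr5:92348840-92349139, minus strand: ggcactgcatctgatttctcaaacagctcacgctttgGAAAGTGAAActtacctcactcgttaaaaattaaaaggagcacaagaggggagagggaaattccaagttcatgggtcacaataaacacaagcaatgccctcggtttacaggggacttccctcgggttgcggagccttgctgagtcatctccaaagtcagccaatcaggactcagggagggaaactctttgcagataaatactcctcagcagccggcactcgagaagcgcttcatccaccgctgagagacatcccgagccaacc
Irf7, chr7:141266375-141266674, minus strand: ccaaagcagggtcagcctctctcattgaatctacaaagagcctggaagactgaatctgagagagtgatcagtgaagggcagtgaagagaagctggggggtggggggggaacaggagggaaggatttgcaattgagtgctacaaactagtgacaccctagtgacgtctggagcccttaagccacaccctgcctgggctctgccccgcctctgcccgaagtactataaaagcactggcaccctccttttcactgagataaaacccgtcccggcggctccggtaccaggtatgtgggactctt
Isg15 held 3 overlapping matches, Ifit3 held 2, Rsad2 and Cxcl10 held 1 each, and none was found in the Irf7 window. Among the 15 largest rises 10 had a window, and 6 of these held the core.

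Over all genes tested with a window, 3.97% (318 of 8017) held the core. The share was 20.5% (48 of 234) among the called rises and 2.04% (4 of 196) among the called falls. It was 58.3% (14 of 24) among rises of at least 4-fold, 33.9% (21 of 62) among rises of 2-fold to 4-fold and 8.78% (13 of 148) among smaller rises. Rises outside the 5 interferon lists held it in 12.8% (24 of 188), and rises inside them in 52.2% (24 of 46). Members of the 5 lists that were not called held it in 42.9% (6 of 14). These shares are a description of the letters in these windows, and no binding was measured.

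Isg15, a ubiquitin-like protein that is attached to other proteins during antiviral responses, was at 11.55, 11.70 and 11.47 on the Casp9 KO arrays and at 7.32, 7.73 and 7.31 on the WT arrays. All Casp9 KO arrays lay above all WT arrays, a 17.4-fold rise (log2 4.12, SE 0.14, limma adjusted p = 5.9e-06). Usp18, the protease that removes Isg15 and also damps the interferon receptor, was at 11.28, 11.68 and 11.56 in Casp9 KO and at 7.22, 7.62 and 7.65 in WT. This was a 16.1-fold rise (limma adjusted p = 5.9e-06). Of the 5 measured genes of Isg15 conjugation and removal, 4 rose. Ube2l6, the conjugating enzyme, rose by 1.44 (SE 0.13), and Uba7, the activating enzyme, by 1.18 (SE 0.20). The Uba7 call was lost without Casp9 KO replicate 3 or WT replicate 1 or 2. The ligase Trim25 changed by 0.63 (SE 0.16) and was not called, though 6 of 20 alternative settings called it.

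Antiviral effectors act directly on viral RNA or on viral entry and assembly. Of 26 measured, 21 rose and none fell, with a median change of 1.41 (1.32 with members at their bound). Ifit3, which binds foreign RNA as part of the Ifit complex, rose 18.7-fold by measured value. It was at 8.81, 9.85 and 9.72 in Casp9 KO and at 5.18, 4.97 and 5.55 in WT, where it was near the detection level and detected on 2 of 3 arrays (log2 4.23, SE 0.27, limma adjusted p = 0.00011). Rsad2, also called viperin, was at 10.52, 10.92 and 10.47 in Casp9 KO and at 6.22, 6.77 and 6.62 in WT, a 17.1-fold rise. The oligoadenylate synthetases, which make the activator of the RNA-cutting enzyme RNase L, rose together with their relatives. Oas2 rose by 3.71 (SE 0.25), Oas1g by 2.91 (SE 0.18), Oasl2 by 3.30 (SE 0.18) and Oasl1 by 2.27 (SE 0.15). Oas3 was below detection on all WT arrays and was at least 3.59-fold higher in Casp9 KO. Probes of the Oas1 family can bind transcripts of related genes. Mx2, a dynamin-like GTPase that blocks viruses, was below detection on all WT arrays and at 7.04, 7.95 and 7.23 in Casp9 KO, at least 5.41-fold higher against the lowest detected level.

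**Figure D2:**
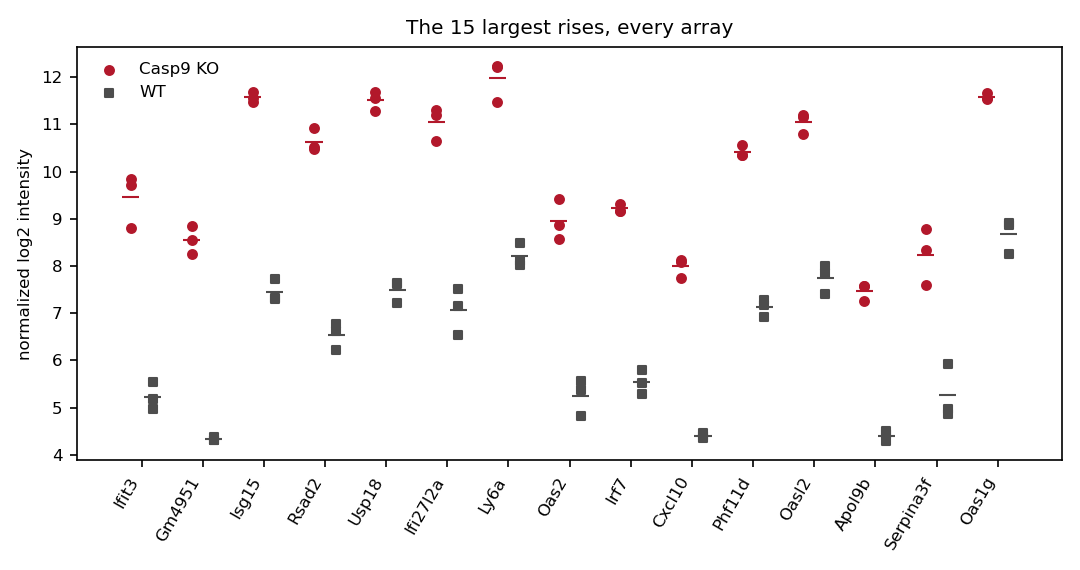
Normalized log2 intensity (vertical axis) of the 15 genes with the largest called rises on each array, with Casp9 KO as red circles left of WT as grey squares and lines at the group means. In each of the 15 genes every Casp9 KO array lies above every WT array. None of the 593 called genes has overlapping groups, so this goes with the choice of the genes. Over all genes tested the groups do not overlap for 26.1%.

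Interferon-inducible GTPases attack the vacuoles of intracellular microbes. Of 11 measured, 10 rose, with the highest median of the 5 lists at 1.87 (1.62 with members at their bound), and the same count of 10 was found without any 1 array. Gm4951, listed in the file under an older symbol, was at 8.55, 8.26 and 8.85 in Casp9 KO and below detection at 4.32, 4.37 and 4.31 in WT. It was at least 12.0-fold higher (limma adjusted p = 5.9e-06). Igtp rose by 2.18 (SE 0.16), Irgm2 by 2.08 (SE 0.19) and Gbp2 by 1.62 (SE 0.14). Irgm1, the regulatory member of the family, was at 12.80, 12.94 and 12.69 in Casp9 KO and at 12.94, 12.60 and 12.71 in WT. The 2 groups overlapped on that probe, and the change of 0.06 (SE 0.13) was not called. Its other probes differed: over the mean of all detected probes the gene was a called rise of 0.88 (limma adjusted p = 0.0059). With only the probes that the authors did not mark for filtering, an alternative chosen after seeing the data, the rise was 1.35.

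Of 18 other interferon-induced genes 16 rose, with a median of 1.22. Ifi27l2a was at 10.65, 11.29 and 11.19 in Casp9 KO and at 6.53, 7.15 and 7.51 in WT, a 15.8-fold rise. Ly6a was at 11.47, 12.24 and 12.21 in Casp9 KO and at 8.02, 8.11 and 8.48 in WT, a 13.7-fold rise (limma adjusted p = 7.3e-05). Phf11d rose 9.88-fold and Xaf1, which binds the caspase inhibitor Xiap in human cells, rose 5.32-fold. Among 17 measured PARP, PML body and TRIM genes, 9 rose and 8 were not called, at a median of 0.82 (0.63 with members at their bound). Parp12 rose by 2.05 (SE 0.16) and Trim30a by 1.98 (SE 0.14).

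Interferon signal components rose less evenly. Of 13 measured STATs and IRFs, 4 rose, among them Irf7, Stat2 and Irf9. Irf7, the factor that amplifies interferon production, was at 9.17, 9.32 and 9.17 in Casp9 KO and at 5.52, 5.79 and 5.28 in WT, a 12.9-fold rise (limma adjusted p = 5.9e-06). Stat2 rose by 0.79 (SE 0.17) and Irf9 by 0.72 (SE 0.14), and both calls were lost in 4 or more of the 6 fits that left out 1 array, so that the count of 4 became 2 without Casp9 KO replicate 3 or any 1 WT replicate. None of the 9 measured interferon receptors and Janus kinases was called by limma, at a median of 0.09. Ifnar1, a chain of the type I interferon receptor, was not among these 9. Of the 9, Ifnar2 alone had an unadjusted p under 0.05. Ifnar2 was at 8.71, 8.18 and 8.28 in Casp9 KO and at 8.20, 7.80 and 7.82 in WT, which overlapped.

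The interferon genes themselves gave little signal. Of the 18 listed, 2 were detected, Ifna1 and Ifne. Ifna1 was at 5.04, 5.18 and 4.96 in Casp9 KO and at 4.91, 4.49 and 5.04 in WT. Neither was called by limma, neither had an unadjusted p under 0.05, and both groups overlapped. Among 10 feedback inhibitors of JAK-STAT signalling, Usp18 alone rose. Socs3, which blocks cytokine receptors, read 5.11, 5.19 and 5.06 in Casp9 KO and 4.73, 4.59 and 5.35 in WT and was not called.

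Sensors of foreign or misplaced nucleic acid feed the same pathway. Of 21 measured sensors and adaptors 9 rose and none fell, with a median of 0.71. The count was 6 without Casp9 KO replicate 3 or WT replicate 2 or 3. The RNA sensors Dhx58 and Ddx58, which encodes RIG-I, rose by 2.23 (SE 0.19) and 1.54 (SE 0.20). Ifi205 was at 8.35, 8.60 and 8.70 in Casp9 KO and at 6.36, 6.23 and 6.25 in WT, a 4.83-fold rise. It belongs to the PYHIN family of DNA-binding proteins, which was picked out after its values were seen, and 7 of the 8 measured members rose, with a median of 1.56. These probes may not tell the closely related members apart. The exception was the inflammasome sensor Aim2. The adaptors Mavs and Ticam1 were not called, at changes of -0.17 and -0.16.

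**Figure D3:**
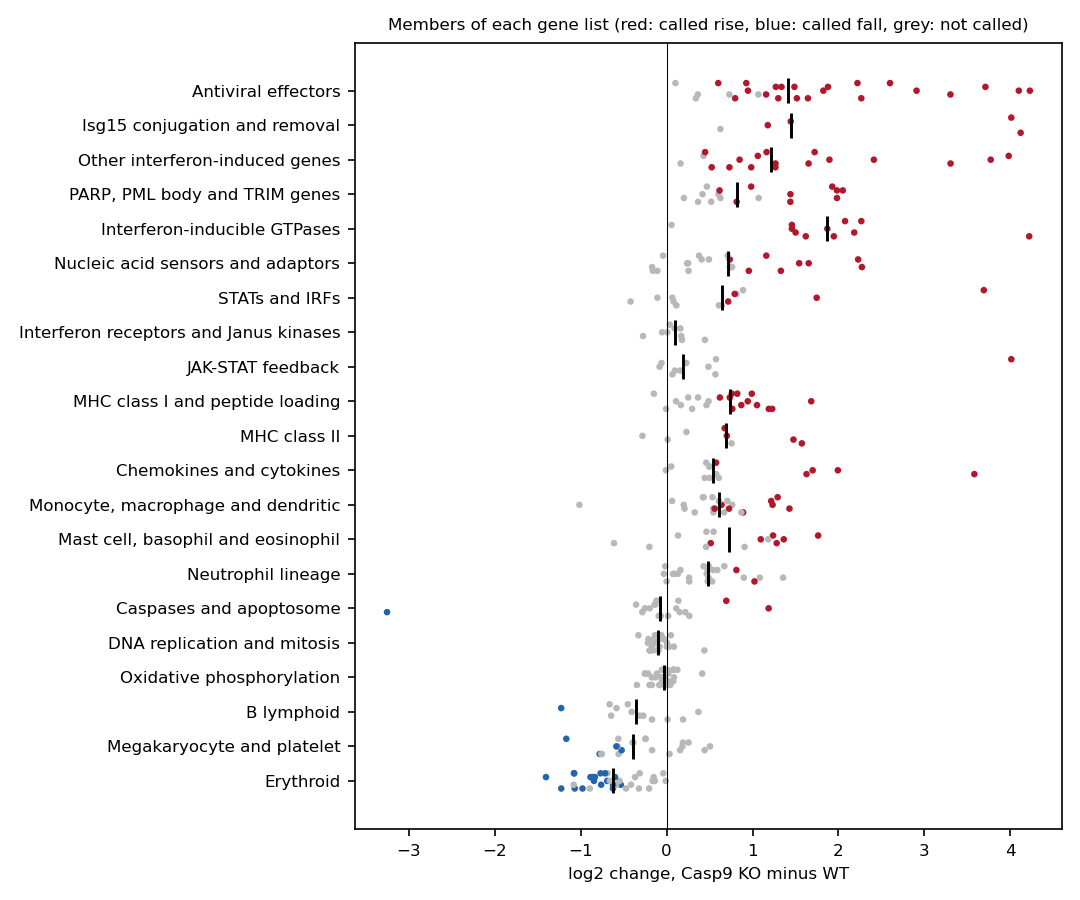
Log2 change (Casp9 KO minus WT, horizontal axis) of each measured member of 21 gene lists, with red for called rises, blue for called falls, grey for genes not called and a black bar at each list's median. The medians run from 1.87 for interferon-inducible GTPases to -0.62 for erythroid genes.

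MHC class I molecules show peptides cut by the immunoproteasome to T cells, and 12 of the 21 measured genes of this route rose, with a median of 0.74. H2-Q8, a class Ib molecule, was at 11.42, 11.03 and 11.06 in Casp9 KO and at 9.54, 9.55 and 9.37 in WT, a 3.21-fold rise. H2-K1 rose by 0.99 (SE 0.11), Nlrc5, a transactivator of class I genes, by 1.23 (SE 0.15), and the immunoproteasome subunit Psmb9 by 0.82 (SE 0.11). Probes of class I genes may bind transcripts of related genes. Of 8 measured class II genes 4 rose, but this count was 2 in each of the 5 fits without Casp9 KO replicate 2 or 3 or any 1 WT replicate. H2-Eb1 rose by 1.57 (SE 0.19) and H2-Aa by 1.48 (SE 0.12), while Cd74, the invariant chain, changed by 0.76 (SE 0.19) and was not called, though 7 of 20 alternative settings called it.

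Chemokines that call in T cells and monocytes were also higher. Of 14 measured chemokines and cytokines 5 rose, and the count was 3 without WT replicate 1. Cxcl10 was at 7.75, 8.13 and 8.09 in Casp9 KO and below detection at 4.35, 4.47 and 4.40 in WT. It was at least 8.09-fold higher (limma adjusted p = 5.9e-06). Ccl5 rose by 1.70 (SE 0.16) and Ccl4 by 1.63 (SE 0.19). Cxcl9 was below detection on all WT arrays and at 6.09, 6.30 and 7.45 in Casp9 KO, at least 3.12-fold higher, and its call was lost without WT replicate 1. Of 19 measured NF-kappaB subunits and targets 4 rose, Ccl4 among them.

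Some called genes crossed the detection level. Of the rises, 41 were below detection on all WT arrays and detected on all Casp9 KO arrays. They passed the detection filter only through the Casp9 KO arrays, and 9 of them were members of the 5 interferon lists. Apol9b was at 7.26, 7.58 and 7.57 in Casp9 KO and at 4.44, 4.49 and 4.28 in WT, at least 5.65-fold higher. Of the falls, 27 were detected on all WT arrays and below detection on all Casp9 KO arrays, and passed the filter only through the WT arrays. Emcn, a sialomucin of blood vessel walls that also marks stem cells, was at 4.46, 4.63 and 4.33 in Casp9 KO and at 6.80, 6.52 and 6.22 in WT, at least 2.97-fold lower (limma adjusted p = 0.00031). Lrig1, an inhibitor of growth factor receptors, was at least 2.11-fold lower.

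Erythroid genes were lower as a group, by less than the interferon genes were higher. All 39 measured members were lower in Casp9 KO, 19 of them were called falls and none rose, at a median of -0.62, beside 2.5% of falls over all genes. Averaged over the 39, the level was 9.71, 9.50 and 9.23 in Casp9 KO and 10.14, 10.10 and 10.11 in WT. Casp9 KO replicate 1 lay nearest to the WT arrays. In sorted bulk cells, fewer cells of a type and less RNA per cell cannot be told apart. The count of 19 rested on every array but 1: it was 6 without Casp9 KO replicate 2 or 3, and 1, 2 and 4 without WT replicates 1, 2 and 3, against 26 without Casp9 KO replicate 1. It was 11 with the Xist level as a covariate.

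The falls in the list included regulators and proteins of the membrane skeleton. Trim10, needed for late red cell differentiation, was at 7.32, 6.88 and 6.27 in Casp9 KO and at 8.21, 8.25 and 8.22 in WT, a 2.64-fold fall (limma adjusted p = 0.014). Add2, which links actin to spectrin, was at 8.02, 7.72 and 7.58 in Casp9 KO and at 8.83, 8.95 and 8.75 in WT, and it kept its call without any 1 array. Ank1, the ankyrin of the red cell membrane, fell by 0.86 (SE 0.15). The Trim10 call was lost without WT replicate 1 or 2, and the Ank1 call without Casp9 KO replicate 3 or WT replicate 1 or 2. The master regulators Klf1 and Gata1 fell by 0.84 (SE 0.17) and 0.69 (SE 0.15), and both calls held in 1 of the 6 fits that left out 1 array. The globin gene Hbb-b1 was at 11.88, 12.46 and 11.78 in Casp9 KO and at 11.97, 12.05 and 12.51 in WT, which overlapped.

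Megakaryocyte and platelet genes showed 4 falls and no rise among 21 measured, at a median of -0.39, beside 2.5% of falls over all genes. Changes ran from -1.17 for Mmrn1 to 0.51, with 14 members lower and 7 higher in Casp9 KO. Mmrn1, a platelet storage protein, was at 4.93, 5.18 and 4.49 in Casp9 KO and at 5.84, 6.14 and 6.12 in WT, a fall by 1.17 (SE 0.18) that was lost without WT replicate 2. The list's count of falls was 2 without Casp9 KO replicate 2 or 3, 1 without WT replicate 1 or 3, 0 without WT replicate 2 and 6 without Casp9 KO replicate 1.

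**Figure D4:**
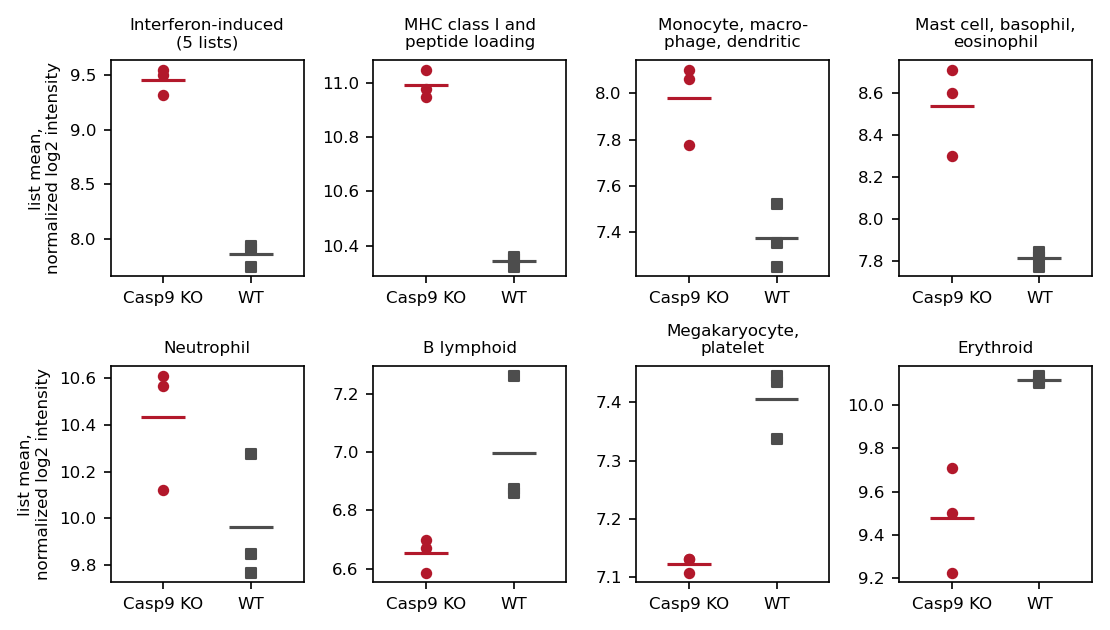
Mean normalized log2 intensity over the measured members of 8 gene lists on each array (vertical axes, each on a scale of its own that does not start at 0), Casp9 KO as red circles left of WT as grey squares, with lines at group means. The interferon-induced mean is 9.32 to 9.55 in Casp9 KO against 7.75 to 7.94 in WT, and the erythroid mean 9.23 to 9.71 in Casp9 KO against 10.10 to 10.14 in WT.

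Stem cell genes moved both ways. Of 33 measured, 3 rose and 5 fell, at a median of -0.06, beside 3.03% of rises and 2.5% of falls over all genes. Besides Ly6a, the rises were Hoxb5, at 1.19 (SE 0.21), and Hoxb4, at 1.10 (SE 0.23). Hoxb2, of the same cluster but outside the list, rose by 1.13 (SE 0.16), whereas none of 5 measured Hoxa genes was called by limma or had an unadjusted p under 0.05. The clusters were picked out after their values were seen. The falls included Emcn, Robo4 and Ndn. Robo4, a guidance receptor of endothelium and stem cells, fell by 1.27 (SE 0.21), and Ndn, a growth suppressor of quiescent cells, was below detection on all Casp9 KO arrays and at least 1.25-fold lower. The calls of Robo4 and Hoxb5 were lost without WT replicate 1 or 2, that of Hoxb4 in 5 and that of Ndn in all 6 fits without 1 array. The count of 5 falls was 3 without Casp9 KO replicate 2 or 3 and 1, 1 and 2 without WT replicates 1, 2 and 3, and the count of 3 rises was 1 without WT replicate 1 or 2. Kit, the receptor of the sort gate, was at 11.68, 11.82 and 11.87 in Casp9 KO and at 12.12, 12.10 and 12.01 in WT and was not called, and Ptprc, which encodes CD45, was detected on all 6 arrays. Cd3e, Cd4 and Cd8a of the excluded lineages were not among the genes detected.

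Most myeloid markers were higher in Casp9 KO. Of 23 measured monocyte, macrophage and dendritic genes 8 rose, at a median of 0.61 (0.54 with members at their bound). This stands beside 3.03% of rises over all genes. In this list 22 were higher, beside 44.8% of all genes, and 1 was lower, at -1.01. Mpeg1, a pore-forming protein of macrophages, was at 9.94, 10.31 and 10.47 in Casp9 KO and at 8.79, 8.87 and 9.18 in WT. Fcgr4 rose by 1.23 (SE 0.18). The count of 8 was 4 without Casp9 KO replicate 3, 3, 3 and 4 without WT replicates 1, 2 and 3, and 13 without Casp9 KO replicate 1. Of 14 measured mast cell, basophil and eosinophil genes 6 rose, at a median of 0.73 (0.58 with members at their bound). Among the 14, 12 were higher and 2 lower, down to -0.61. Mcpt8, a protease of basophils, was at 8.54, 8.13 and 8.86 in Casp9 KO and at 7.06, 7.38 and 7.38 in WT, a 2.36-fold rise. The count of 6 was 2 without Casp9 KO replicate 3 or WT replicate 2 and 3 without WT replicate 1 or 3.

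Of 24 measured neutrophil genes 2 rose, Clec5a and Cxcr2, and 22 were higher, at a median of 0.48. Over all genes 3.03% rose and 44.8% were higher. The count of 2 was 1 to 5 without 1 array. The defining granule genes Elane and Mpo changed by -0.02 and 0.09 and were not called. The list mean was 10.12, 10.57 and 10.61 in Casp9 KO and 9.77, 9.85 and 10.27 in WT, where WT replicate 3 stood above Casp9 KO replicate 1. Among 12 B lymphoid genes 1 fell, beside 2.5% of falls over all genes. It was Dntt, the enzyme that adds bases at antigen receptor joints. Dntt read 6.83, 6.55 and 5.84 in Casp9 KO and 7.62, 7.57 and 7.70 in WT. That call was lost without any 1 WT replicate. The part of these marker changes in the interferon result was not tested.

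Most apoptosis and proliferation genes were not called. Over all genes 5.53% were called in either direction, a share exceeded in the caspase, BCL-2, p53 and cyclin lists on few calls each. Of 18 measured caspase and apoptosome genes, Casp9 fell, Casp4 and Casp1 rose and 15 were not called. Casp4, an inflammatory caspase, was at 9.09, 9.14 and 9.06 in Casp9 KO and at 7.85, 7.92 and 7.95 in WT, a 2.28-fold rise. Casp1 rose by 0.70 (SE 0.12), and its call was lost without Casp9 KO replicate 3 or any 1 WT replicate. The apoptosome scaffold Apaf1 changed by 0.22 (SE 0.16) and was not called. Of 13 measured BCL-2 family genes the killer gene Bcl2l11 fell by 0.71 (SE 0.10) and the survival gene Bcl2a1d rose by 0.78 (SE 0.10), and the Bcl2l11 call was lost without WT replicate 2. Of 20 measured p53 targets, Cdkn1a and Fas rose, and neither call held without Casp9 KO replicate 3 or without WT replicate 1 or 2. Of 20 measured cyclins, CDKs and CDK inhibitors, Ccnd2 and Cdkn1a rose and Cdkn2c fell, and none of the 3 calls held without Casp9 KO replicate 3 or without WT replicate 1 or 2. None of 31 measured genes of DNA replication and mitosis and none of 31 of oxidative phosphorylation was called by limma, with medians of -0.10 and -0.03 and with 1 and 3 at an unadjusted p under 0.05.

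Among falls outside the lists, Spon2, a secreted matrix protein, was at 9.22, 8.03 and 7.47 in Casp9 KO and at 10.52, 10.40 and 10.39 in WT, a fall by 2.19 (SE 0.37) that was lost without WT replicate 1 or 2. Sh3tc2 was at 6.81, 6.28 and 6.00 in Casp9 KO and at 8.33, 8.21 and 8.29 in WT, a fall by 1.91 (SE 0.19). Scd1, a fatty acid desaturase, fell by 1.48 (SE 0.24). The Scd1 call was lost without Casp9 KO replicate 3 or WT replicate 1. Of the 10 measured genes of the Bex and Tceal families, picked out after their values were seen, 4 fell and Bex6 rose, a call that held in 2 of the 6 fits without 1 array. Tceal6 was at 4.99, 4.47 and 4.34 in Casp9 KO and at 6.26, 5.96 and 6.17 in WT. The probe of DQ341294, an unannotated transcript, was below detection on all Casp9 KO arrays and at least 4.36-fold lower, with a wide spread in WT, at 5.87, 6.84 and 8.50, and its call was lost in 4 of the 6 fits without 1 array.

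Where the Casp9 effect differed from that of losing Bak and Bax, which act upstream of caspase-9, was tested with the difference of both effects in 1 fit of the 12 arrays. It was called for 197 genes (1.84%). Bak/Bax DKO replicate 2 stood apart, with correlations of 0.66 to the arrays of its own group, and without it the difference was called for 808 genes (7.53%). Experiment and beadchip go with the genotype here, so effects of either on the difference cannot be told apart. Of the 325 rises, 58 differed on the side of a larger Casp9 effect, and 193 did without that array. Of the 268 falls 53 did, and 121 without that array. These genes were picked by the same Casp9 values that enter the difference, so this side was favoured in advance. On the other side 1 rise was called without that array, and otherwise no gene of either set. The median Bak/Bax effect over the 325 rises was 0.20, and 0.04 without that array. Bak/Bax DKO had called rises of its own for 47 of the 325, and for 58 without that array. It had called falls for 1 of the 268, and for 8 without that array. The shares of Bak/Bax calls over all genes are not given here. These counts alone therefore do not show how far both effects overlap.

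Rsad2 changed by 4.10 in Casp9 KO and by 1.42 in Bak/Bax DKO, a difference of 2.68 (limma adjusted p = 0.011). Usp18 changed by 4.01 in Casp9 KO and by 1.98 in Bak/Bax DKO, a difference of 2.03 (limma adjusted p = 0.028). For Isg15 the changes were 4.12 and 1.91, and the difference of 2.21 was not called with all 12 arrays (limma adjusted p = 0.069) but was called without Bak/Bax DKO replicate 2 (0.00024). Uba7 and H2-Q7 differed by 0.08 and -0.16, which was not called either way. Robo4 changed by -1.27 in Casp9 KO and by 1.26 in Bak/Bax DKO, and this difference was called with and without that array.

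**Figure D5:**
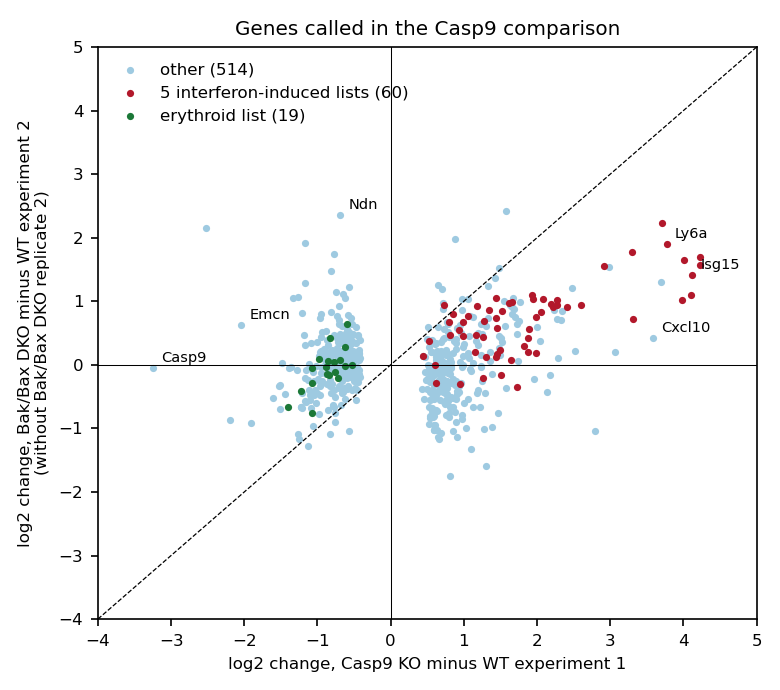
For the 593 genes called in the Casp9 comparison, log2 change in Casp9 KO against WT experiment 1 (horizontal axis) and in Bak/Bax DKO against WT experiment 2 without Bak/Bax DKO replicate 2 (vertical axis), with the 60 interferon-induced rises in red, the 19 erythroid falls in green and a dashed line of equal effects. Genes below detection in a group are drawn at their measured values. The interferon-induced genes with the largest Casp9 change lie below the dashed line, such as Isg15 and Ly6a. All genes shown were picked by the values on the horizontal axis, which favours this side of the line for rises.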

How the data were processed

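Sorted cells were measured on Illumina Mouse WG6V2 BeadChips. The authors deposited the linear bead intensity of each probe, a detection score headed as a p-value, and normalized log2 values. The deposited score rises with intensity on every array and was read as 1 minus the detection p-value. Per the submitters' processing notes GenomeStudio and limma were used, and the steps, versions and genome build are not given in the sources used here. Current symbols came from the Entrez ID (38837 probes) or the accession (80), the file's symbol was kept for 4694 probes, and 1670 had none.

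The deposited log2 values of the 3 Casp9 KO and 3 WT experiment 1 arrays were fitted with lmFit and eBayes of limma 3.58.1 in R 4.3.3 (two-sided, Benjamini-Hochberg over 10724 genes, 4 residual degrees of freedom), with calls made at an adjusted p under 0.05. A gene with no probe above the detection level on any of the arrays of 1 group has a bound, "at least N-fold", in the Casp9 comparison, taken against the lowest detected level per array. Figures, differences of effects and list medians use measured values unless a bound is named. The difference of effects was a contrast of 4 group means over 12 arrays. Members and lists were chosen with earlier results of these data known. Named genes were the 15 largest rises and falls without overlap, up to 6 called members of each list, all members of lists with at most 12 measured, the largest changes across the detection level and the 5 largest differences of effects each way; others were picked out after their values were seen or serve as examples of a list. Alternatives changed the arrays fitted, normalization, background correction, detection filter, probe choice and covariates. Some named genes are not reported here.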

Additional observations from a re-analysis of the deposited data

Results flagged for a closer look

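The effects of Casp9 KO and Bak/Bax DKO differed for 197 genes by a test of the difference over all 12 arrays, and 44 of these are named in the lists or among the largest changes. All 44 were also called without Bak/Bax DKO replicate 2. For genes named because of their Casp9 KO change, a difference of the same sign was favoured in advance. Differences are given as the Casp9 KO effect minus the Bak/Bax DKO effect on the log2 scale, so a change in either experiment enters them. Vpreb1, Nkg7 and Ltb were not called in Casp9 KO. Across the alternatives their Casp9 KO changes were -0.29 to -0.06, 0.355 to 0.496 and 0.10 to 0.27. By measured value Ndn changed by -0.69 in Casp9 KO and by 2.50 in Bak/Bax DKO, and Mmrn1 by -1.17 and 1.81. Of the genes given, 7 were below detection on all WT experiment 1 arrays (AK080098, Apol9b, Cxcl10, Gbp5, Gm14340, Gm4951 and Mx2) and 4 on all Casp9 KO arrays (Bdh2, Emcn, Lrig1 and Ndn), so their differences rest in part on background values. Names follow the Entrez ID, and for some probes the file names another gene: the Gm14340 probe is Zbp1 in the file, and the Mtm1 probe is LPR there and lies on chromosome 11, so both names are uncertain. The differences were Cxcl10 3.23, Apol9b 2.82, Rsad2 2.68, Ifi27l2a 2.61, Gm4951 2.54, Gm14340 2.37, Phf11d 2.18, Usp18 2.03, Ly86 2.00, Irf7 1.99, Vpreb1 1.94, Klf6 1.89, Nkg7 1.87, Slfn2 1.85, Clec5a 1.83, AK080098 1.68, Gbp3 1.61, Mx2 1.61, Ifi205 1.45, Oasl2 1.37, Dhx58 1.32, Gbp5 1.27, Sp100 1.27, Mcpt8 1.23 and Fcgr3 1.09. On the negative side they were P2ry1 -1.09, Zfpm1 -1.26, Mfsd2b -1.38, Gp5 -1.43, Lrig1 -1.46, Bdh2 -1.90, Ltb -2.07, Robo4 -2.53, Maged1 -2.56, Mmrn1 -2.98, Emcn -3.02, Ndn -3.19 and Casp9 -3.26.

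Of the 5 largest differences on the positive side, all were genes not called in Casp9 KO, and the largest on the negative side was too. These 6 were Htatip2 5.11, Mtm1 4.31, Ndufb10 4.14, Zfp945 3.44, Ctu1 3.23 and AK205379 -4.25. They were set by changes in the Bak/Bax experiment: Htatip2 changed by -0.02 in Casp9 KO and by -5.13 in Bak/Bax DKO.

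The 108 detected probes with no gene symbol were outside the comparison of genes. Among them 3 were called rises and none a fall.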

How the results depend on the processing

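Casp9 kept its fall under every alternative, from -3.55 to -1.91, and the rises in the 5 interferon lists stayed between 48 and 64. Total calls were 175 with all 12 arrays fitted (124 rises, 51 falls, 4 of them erythroid) and 315 with no detection filter (186 rises, 129 falls, 5 erythroid). With the Xist level as covariate there were 169 falls, 11 of them erythroid. Without 1 array, calls ranged from 177 to 833, rises from 134 to 454, falls from 43 to 379 and erythroid falls from 1 to 26. Rises made up 54.8% of calls, 67.4% on median-centred arrays and 70.9% with 12 arrays. The difference of effects was called for 1037 genes with array weights and for 73 to 808 without 1 array. Correlations of deviations were 0.27, -0.08 and 0.11 for arrays of the same replicate number and -0.24 to 0.16 for others. These few values cannot decide whether replicate numbers pair the arrays. A replicate block gave 557 calls (317 rises, 240 falls), 61 interferon and 20 erythroid calls, a Casp9 change of -3.25, and 47 called differences. The share of risen promoters with the core was 17.1% when the window ended at the start site. Of 126 named called genes other than Casp9, 78 kept their call without any 1 array, 66 under every alternative, and none reversed. Among genes not called, 53 values near 0 changed sign, and the cause was not tested. These became, with array weights, Pias3 0.00421, Tie1 0.0637, Il2rb -0.0985. Likewise, with the Xist level as covariate, Kdm5d -0.0371, Pias4 0.0173, Ndufb10 0.0104, Lck -0.0407, Htatip2 0.0353, H2-Oa -0.0753, Ighm -0.0883, Il2rb -0.0858. Likewise, over the mean of all detected probes, Tyk2 -0.0725, Ndufb10 0.0468, Ighm -0.17. Likewise, on median-centred arrays, Htatip2 0.0161, Tie1 0.0231, Il2rb -0.0220. Likewise, without background correction, Il2rb -0.00990. Likewise, on probes the authors did not mark for filtering, Tyk2 -0.16. Irgm1 became a called rise over the mean of all detected probes (0.88) and on probes the authors did not mark for filtering (1.35). Without 1 array the ranges were Ifne -0.0179 to 0.21, Pias3 -0.22 to 0.11, Jak3 -0.17 to 0.0907, Il10rb -0.0429 to 0.12, Tie1 -0.26 to 0.13, Ifngr2 -0.15 to 0.15, Il2rb -0.18 to 0.27, Mtm1 -0.24 to 0.0378, Irgm1 -0.0155 to 0.15, Ndufb10 -0.21 to 0.0302, Lck -0.0478 to 0.17, Htatip2 -0.14 to 0.0588, H2-Oa -0.17 to 0.13, Ighm -0.13 to 0.22, Pias4 -0.14 to 0.0394, Cd34 -0.0531 to 0.23.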
